A study of Mus musculus with 9 samples.

Results

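The insulin-like growth factor (IGF) system was followed through the cerebral cortex of mouse embryos with normal or mutant Cyfip2. The genes described are 10 listed members, matched by symbol to Ensembl identifiers, out of 18820 genes in the deposited table: the ligands Igf1 and Igf2, the receptors Igf1r, Insr, Igf2r and Ghr, and the binding proteins Igfbp2, Igfbp3, Igfbp4 and Igfbp5. All 10 were in the table and all 10 passed the filter on low values, as did 15069 genes in all. RNA was sequenced from C57BL/6J cortex at embryonic day 18.5, with 3 libraries each of wild type (WT), Cyfip2 heterozygotes (Het) and Cyfip2 knockouts (KO). No further allele or treatment is named in the labels, which give neither the design of the Cyfip2 mutation nor the number of embryos behind the libraries. A p-value here therefore refers to library-to-library spread, whose biological and technical parts the labels do not separate. The Y-linked gene Ddx3y was listed at 0 in Het replicate 1 and KO replicates 1 and 2, and was present in the other Het and KO libraries. The libraries of these genotypes were therefore not all made from the same embryos.

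IGF1 and IGF2 are secreted peptides related to insulin that promote growth and survival of neural cells through the tyrosine kinase receptor IGF1R and, for IGF2 in the embryo, also through the insulin receptor. IGF2R, which also carries mannose 6-phosphate-tagged enzymes to lysosomes, takes up IGF2 for degradation and does not signal as a kinase. IGF-binding proteins hold the ligands in extracellular fluid, and growth hormone acts through GHR to raise Igf1 in liver and other tissues. In the embryonic brain Igf2 is known as a product of meninges, vessels and choroid plexus, and Igf1 is known to be high in olfactory bulb neurons. Cyfip2, the targeted gene, encodes a subunit of the WAVE complex, which controls branched actin.

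The study's labels were checked against marker genes. Cyfip2 was at 10169 to 11174 normalized counts in WT, 8969 to 9882 in Het and 7522 to 8255 in KO, so the genotypes did not overlap. The KO mean was 74.7% of WT (adjusted p = 0.678 by limma), so most of the RNA counted for Cyfip2 remained in the libraries labelled KO, and the labels do not say which bases the mutation removes. The 10 markers of cortical neurons and progenitors were present in every library, with a summed level of 84410 to 113627. The libraries differed in other tissue. Cdhr1, which marks mitral cells of the olfactory bulb, reached 2138 to 3436 in 4 libraries (WT replicate 3, Het replicate 1 and KO replicates 1 and 2) and was at 21.8 to 53.1 in the remaining 5. Over the 7 olfactory bulb markers, 6 were higher in all 4 of these libraries than in any other, their summed level was 3431 to 5038 against 882 to 1072, and Ms4a15 was listed at 0 in each of the other 5. Het replicate 3 was the lowest of the 9 libraries for 15 of 15 meningeal fibroblast markers, whose summed level was 601 there and 11351 to 24809 elsewhere, for 11 of 11 endothelial markers and for 11 of 12 markers of pericytes and smooth muscle. The Y-linked gene Ddx3y was listed at 0 in 3 of the 4 high-Cdhr1 libraries (the first Het and the first and second KO replicates) and was present in the other 6 libraries. Fewer cells of a type and less RNA per cell cannot be told apart in these bulk samples. Approximate depth was 29.5 to 54.4 M (mega) reads per library.

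The members lie on 7 chromosomes of the GRCm38 build. By GENCODE release M21, Igf1 (ENSMUSG00000020053) spans 87858265 to 87937042 on chromosome 10, Igf2 (ENSMUSG00000048583) spans 142650766 to 142666816 on chromosome 7, and Igf1r (ENSMUSG00000005533) spans 67952827 to 68233668 on the same chromosome. Igfbp2 (ENSMUSG00000039323, 72824503 to 72852474) and Igfbp5 (ENSMUSG00000026185, 72857932 to 72874884) are neighbours on chromosome 1, on opposite strands. Igfbp3 (ENSMUSG00000020427, 7206086 to 7213923) and Igfbp4 (ENSMUSG00000017493, 99041244 to 99054392) are on chromosome 11, which also carries Cyfip2. Igf2r (ENSMUSG00000023830) is on chromosome 17, Ghr (ENSMUSG00000055737) on chromosome 15 and Insr (ENSMUSG00000005534) on chromosome 8. Igf2 shares 3596 exonic bases with Gm49394, an annotated gene on the same strand, and 98 with the antisense gene Igf2os, so the assignment of its reads is uncertain to that extent. No exon of another annotated gene overlaps the exons of the other 9.

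The starts of 4 members among those that the values below turn on are shown: Igf2, Igfbp2 and Igfbp4 were all lowest in Het replicate 3, and Igf2, Igfbp4 and Igfbp5 were higher in all 4 libraries with high Cdhr1. Each line is the stretch before an annotated start in RefSeq (GRCm38.p6), read 5′ to 3′ on the gene's strand, with matches on either strand to the TATA box letters TATAAA, the CCAAT box letters CCAAT or the GC box letters GGGCGG in capitals. Bases inside an exon annotated by GENCODE were left out, which ends the Igfbp5 stretch 19 bases before the RefSeq start. Igf1, which had both patterns, is not shown because its window is wholly exonic, and Ghr, which had the first, is not shown either. RefSeq windows were found for 9 of the 10 members. The Igf2 stretch is chr7:142657497-142657746 on the minus strand, before 1 of its 4 listed starts, that of Igfbp2, before 1 of 2 listed starts, is chr1:72824230-72824479 on the plus strand, that of Igfbp4 is chr11:99040994-99041243 on the plus strand and that of Igfbp5 is chr1:72874885-72875115 on the minus strand.
Igf2: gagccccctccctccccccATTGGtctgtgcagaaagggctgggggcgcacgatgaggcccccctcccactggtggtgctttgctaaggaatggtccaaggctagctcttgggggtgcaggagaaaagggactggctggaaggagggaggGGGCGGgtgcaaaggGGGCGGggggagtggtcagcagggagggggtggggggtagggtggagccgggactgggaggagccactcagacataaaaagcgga
Igfbp2: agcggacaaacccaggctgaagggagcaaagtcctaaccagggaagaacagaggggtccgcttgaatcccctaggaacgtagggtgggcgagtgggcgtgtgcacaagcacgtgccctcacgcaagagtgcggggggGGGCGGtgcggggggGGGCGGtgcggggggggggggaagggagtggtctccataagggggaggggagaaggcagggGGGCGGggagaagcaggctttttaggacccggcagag
Igfbp4: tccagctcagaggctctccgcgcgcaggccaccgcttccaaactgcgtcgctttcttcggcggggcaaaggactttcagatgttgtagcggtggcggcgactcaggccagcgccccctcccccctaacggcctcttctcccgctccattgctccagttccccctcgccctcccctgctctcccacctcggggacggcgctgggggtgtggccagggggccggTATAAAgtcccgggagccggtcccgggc
Igfbp5: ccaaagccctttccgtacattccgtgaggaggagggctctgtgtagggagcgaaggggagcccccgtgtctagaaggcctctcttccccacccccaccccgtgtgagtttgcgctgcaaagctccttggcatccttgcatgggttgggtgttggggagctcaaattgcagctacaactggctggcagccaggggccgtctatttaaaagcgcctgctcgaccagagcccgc
Igfbp4 carried a TATAAA 28 bases before its start, a motif found in 12.4% of all 32851 RefSeq windows of 250 bases. GGGCGG, in 32.7% of windows, occurred 3 times in Igfbp2 and 2 times in Igf2. CCAAT, in 33.8% of windows, occurred once in Igf2, on the opposite strand. Igfbp5 held none of the motifs. The matches do not overlap one another and describe letters only. The deposited gene totals do not show which of the Igf2 starts was used.

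Levels were compared between genes as normalized counts per kb of annotated exon. In WT the order was Igfbp2 (2367 ± 168, SD, n = 3), Igf2 (1674 ± 163), Igfbp5 (807 ± 171), Igfbp3 (708 ± 94.3), Igfbp4 (687 ± 34.8), Igf2r (369 ± 37.1), Insr (359 ± 15.0), Igf1r (170 ± 10.8), Igf1 (36.0 ± 31.2) and Ghr (16.3 ± 1.16). The libraries of neighbours in this order overlapped for Igfbp5 with Igfbp3, Igfbp3 with Igfbp4, Igf2r with Insr, and Igf1 with Ghr, so these are not ordered beyond their spread. With the longest transcript as the length, a choice made after seeing the data, Igfbp3 moved above Igfbp5 and Insr above Igf2r, the latter without overlap. Igf1r stood at a steady ratio to Insr per kb, from 0.460 to 0.516 over the 9 libraries. The ratio of Igf2 to Igf1 per kb was lowest at 22.8 (KO replicate 2) and highest at 129 (KO replicate 3).

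**Figure D1:**
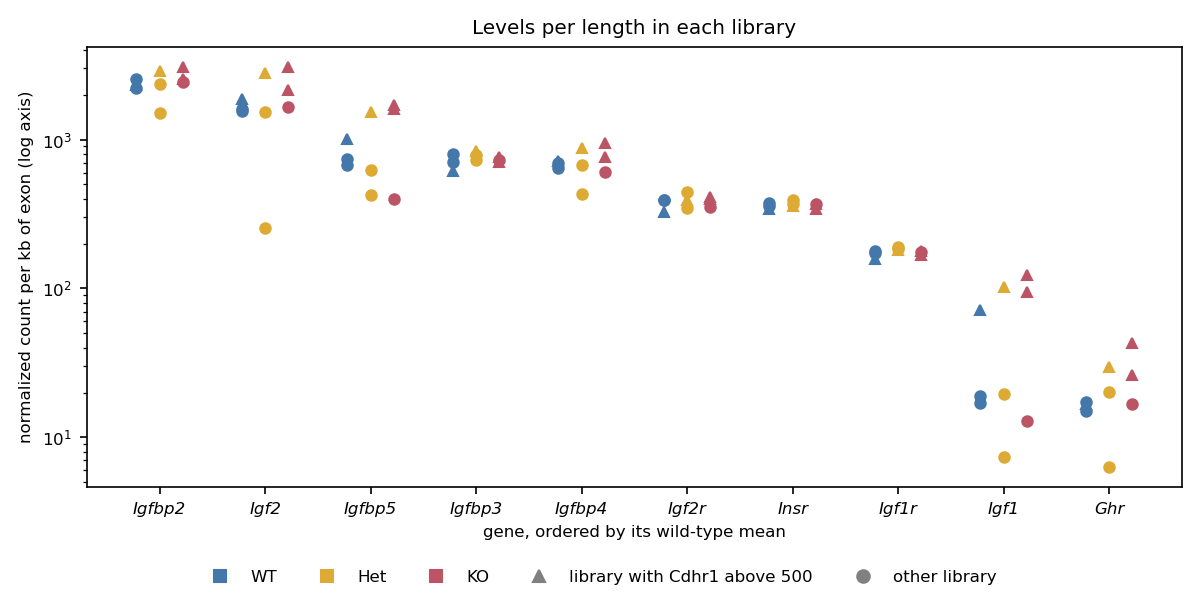
Normalized counts per kb of annotated exon (log axis) for each member in each of the 9 libraries, with colours for genotype and triangles for the 4 libraries with Cdhr1 above 500. Igfbp2 and Igf2 stand at the top in WT (means of 2367 and 1674), and Igf1 and Ghr at the bottom (36.0 and 16.3) with the widest spread of Igf1 between triangles and circles.

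Igf1 differed most between libraries and did not separate the genotypes. In WT the normalized counts of Igf1 were 168, 188 and 713. Het gave 1018, 193 and 73.1, and KO gave 1218, 933 and 127. The high values were those of WT replicate 3, Het replicate 1 and KO replicates 1 and 2, the same 4 libraries in which Cdhr1 was high: they ran from 713 to 1218, and the other 5 from 73.1 to 193. Every genotype held at least 1 library of each kind. The log2 fold change on the log2(value + 1) scale was 0.89 ± 1.12 (SE) for KO against WT, with a 95% interval from -1.66 to 3.45, and -0.21 ± 1.12 for Het against WT, with an interval from -2.76 to 2.34. In the 5 libraries with low Cdhr1 alone, which hold only 1 KO library whose spread is assumed to be like that of the others, the KO to WT value was -0.48. Its residual SD was 1.65 on the log2 scale, at the 99.0 percentile of all genes tested, where the median gene had 0.149. Microglia, which also express Igf1, had 12 of 14 markers lowest in Het replicate 3, the library with the least Igf1, with a summed level of 2064 against 3889 to 6391 elsewhere. The part of olfactory bulb or microglial RNA in the Igf1 values was not tested.

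Igf2, the more abundant ligand, was low in a single library. Normalized counts of Igf2 were 8888, 9213 and 10644 in WT, 16066, 8814 and 1458 in Het and 17425, 12264 and 9481 in KO. Het replicate 3 was at 14.5% of the median of the other 8 libraries, where the meningeal collagen gene Col1a1 was at 2.92% and the endothelial gene Pecam1 at 57.4%. The 4 libraries with high Cdhr1 held the 4 highest Igf2 values, from 10644 to 17425. These libraries also had the highest summed meningeal markers, 14234 to 24809 against 601 to 13663 in the other 5. Of the 15 meningeal markers, 8 were higher in all 4 of these libraries than in any other, among them Dcn (1355 to 2227 against 23.9 to 1065), while Col1a1 overlapped (2792 to 5328 against 87.2 to 3173). Ttr, the main product of choroid plexus, was highest in WT replicate 2 (3156) and Het replicate 2 (11029), and the 10 choroid plexus markers summed to 97.2 in Het replicate 3 and 423 to 12209 elsewhere. The per-kb ratio of Igf2 to Col1a1 was 3.19 to 4.64 in 8 libraries and 19.2 in Het replicate 3, so Igf2 was low there by less than Col1a1. The log2 fold change was 0.41 ± 0.73 for KO against WT (95% interval -1.25 to 2.06), and -0.69 ± 0.73 for Het against WT (-2.35 to 0.97), which became 0.32 without Het replicate 3. For KO against Het it was 1.10 ± 0.73 (-0.56 to 2.76), and 0.089 without that library. The part of meningeal, vascular or choroid plexus RNA in these values was not tested.

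**Figure D2:**
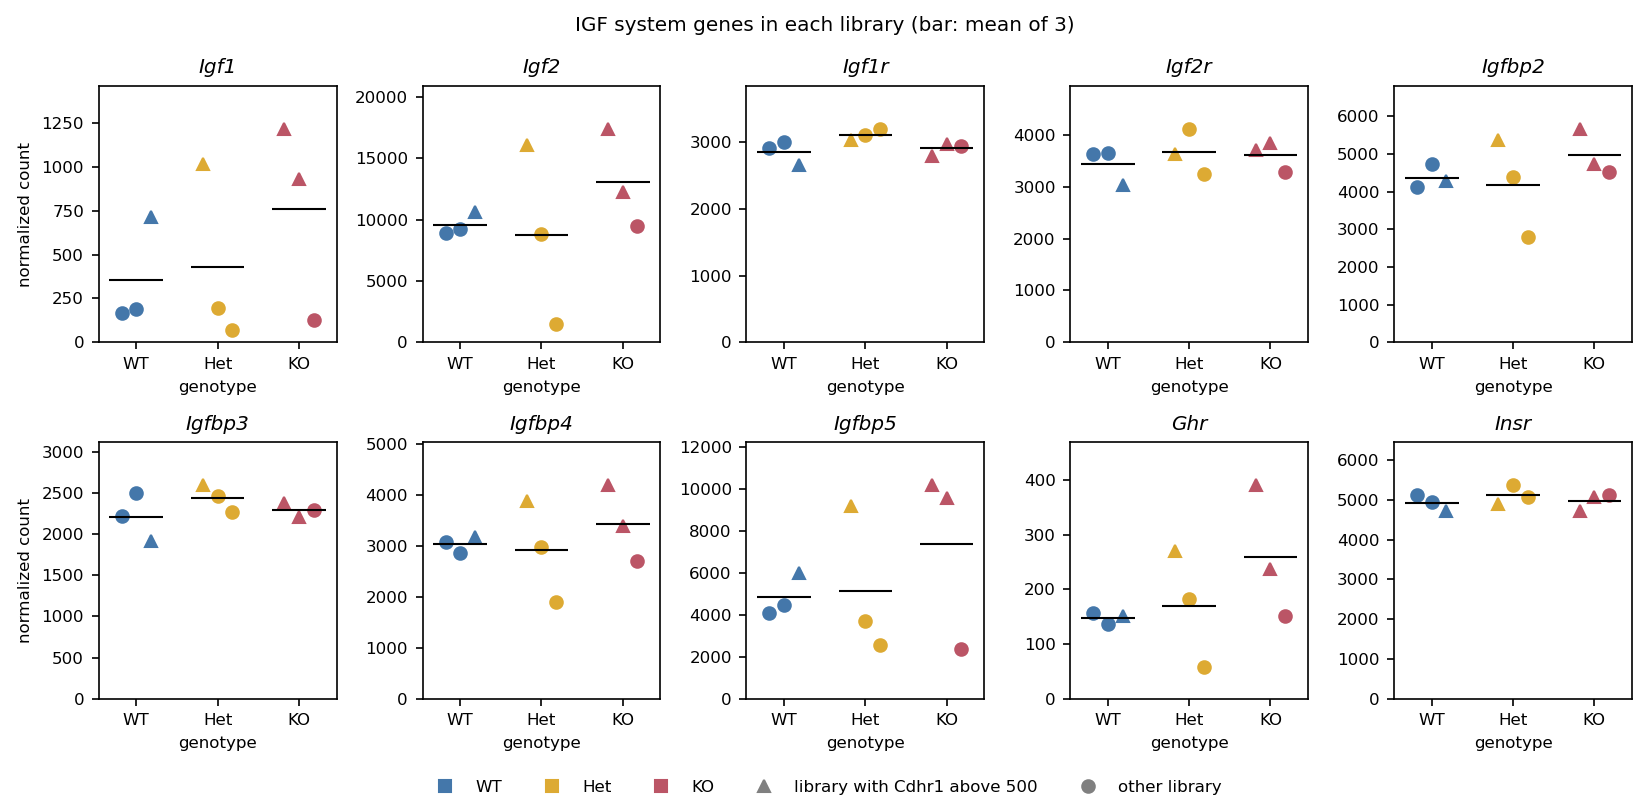
Normalized counts of the 10 members (linear axes from 0) in each library by genotype, with a bar at the mean of 3 libraries and triangles for libraries with Cdhr1 above 500. Igf1 and Igfbp5 split by triangle and circle rather than by genotype, Igf2 has 1 low Het library at 1458, and Igf1r, Insr, Igf2r and Igfbp3 lie close together.

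Igf1r and Insr varied little between libraries. Igf1r, the main receptor for both ligands, was at 2910, 3001 and 2653 in WT, 3041, 3101 and 3203 in Het and 2799, 2981 and 2942 in KO. All 3 Het libraries lay above all WT and all KO libraries, while WT and KO overlapped. For Het against WT the log2 fold change was 0.13 ± 0.06 (95% interval -0.0063 to 0.26), a Het mean of 109% of WT, with an adjusted p = 1.00 by limma over all genes (unadjusted p = 0.059). For KO against Het it was -0.10 ± 0.06 (-0.23 to 0.034), with an adjusted p = 0.942. Groups failed to overlap for 6.67% of all genes between Het and WT (3.36% with Het higher, 3.31% lower) and for 7.82% between KO and Het (4.68% with KO lower, 3.15% higher), and among the members for Igf1r alone, 1 of 10, in each of these comparisons. Between KO and WT they failed to overlap for 0 of 10 members and for 6.46% of all genes (3.17% higher, 3.3% lower). In the 5 libraries with low Cdhr1 the Het to WT value was 0.093 and the KO to Het value -0.099. Without WT replicate 3, the lowest library, the Het to WT value was 0.076.

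Insr, the insulin receptor, was at 5129, 4939 and 4719 in WT, 4892, 5373 and 5082 in Het and 4722, 5081 and 5112 in KO. The genotypes overlapped, and the highest library was only 1.14 times the lowest. Its log2 fold change was 0.012 ± 0.06 for KO against WT, with a 95% interval from -0.12 to 0.14 that corresponds to 0.921 to 1.10 times the WT level. Igf1r and Insr had residual SDs of 0.064 each, at the 10.1 percentile of all genes tested. For Igf1r the KO to WT interval ran from -0.11 to 0.16. With 3 libraries per genotype, differences inside these intervals remain compatible with the values. The intervals are not limits of detection.

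Igf2r, the scavenger of IGF2, was at 3626, 3649 and 3040 in WT, 3633, 4117 and 3238 in Het and 3707, 3848 and 3280 in KO. WT replicate 3, Het replicate 3 and KO replicate 3 were the lowest library of their genotype. The log2 fold change was 0.073 ± 0.11 for KO against WT and 0.089 ± 0.11 for Het against WT. Ghr, the growth hormone receptor, was at 156, 136 and 151 in WT, 269, 182 and 57.2 in Het and 391, 237 and 152 in KO. Het replicate 3 was at 33.8% of the median of the others, and the 3 libraries with the highest Ghr were the 3 in which Ddx3y was listed at 0. All had high Cdhr1 as well, while WT replicate 3, with high Cdhr1, was at the level of the other WT libraries. Between KO and WT the log2 fold change was 0.71 ± 0.54 (95% interval -0.52 to 1.93) and was -0.091 with sex as a covariate. Sex was read from the Y-linked gene Ddx3y alone, present in all 3 WT, in 2 of 3 Het and in 1 of 3 KO libraries. In the libraries without Ddx3y, the Y-linked gene Eif2s3y was also at 0, while Kdm5d and Uty were lower than elsewhere but not at 0. Sex and olfactory bulb RNA were not tested as causes.

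Among the binding proteins, Igfbp2, known as the main IGF-binding protein of the fetal brain, was at 4121, 4718 and 4274 in WT, 5360, 4384 and 2799 in Het and 5667, 4737 and 4518 in KO. Het replicate 3 was again the lowest of the 9, at 60.6% of the median of the others, and KO replicate 1 the highest. The per-kb ratio of Igfbp2 to Igf2 was 1.01 to 1.59 in 8 libraries and 5.95 in Het replicate 3. Between KO and WT the log2 fold change was 0.18 ± 0.21 (95% interval -0.29 to 0.65). Igfbp4, which restrains IGF signalling until cleaved by the protease PAPPA, was at 3072, 2863 and 3162 in WT, 3872, 2968 and 1899 in Het and 4189, 3375 and 2689 in KO. Its 4 highest libraries were those with high Cdhr1, 3162 to 4189 against 1899 to 3072. For Igfbp4 the log2 fold change between KO and WT was 0.15 ± 0.24 (-0.40 to 0.70), and -0.14 in the 5 libraries with low Cdhr1.

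Igfbp5, a binding protein that also attaches to extracellular matrix, followed the libraries in the manner of Igf1. It was at 4067, 4460 and 6010 in WT, 9184, 3722 and 2555 in Het and 10191, 9587 and 2378 in KO. The 4 libraries with high Cdhr1 held 6010 to 10191 and the other 5 held 2378 to 4460. Within the first kind the WT library was the lowest, and within the other kind KO replicate 3 was the lowest and both WT libraries were the highest. Between KO and WT the log2 fold change was 0.36 ± 0.61 (95% interval -1.02 to 1.75) over all libraries. It was -0.84 over the 5 with low Cdhr1, and -0.85 with sex as a covariate (unadjusted p = 0.0059, adjusted p = 0.965 by limma). These adjustments overlap, since every library with Ddx3y at 0 also had high Cdhr1. KO replicate 3 was the only KO library with low Cdhr1 and the only KO library with Ddx3y, so both values lean on it. For Het against WT the log2 fold change was -0.11 ± 0.61, and -0.71 with sex as a covariate (unadjusted p = 0.0069, adjusted p = 0.840 by limma). Igfbp3, the main IGF carrier of blood, was at 2224, 2507 and 1917 in WT, 2600, 2465 and 2267 in Het and 2378, 2210 and 2297 in KO. The genotypes overlapped, and its KO to WT log2 fold change was 0.058 ± 0.10 (-0.16 to 0.28).

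**Figure D3:**
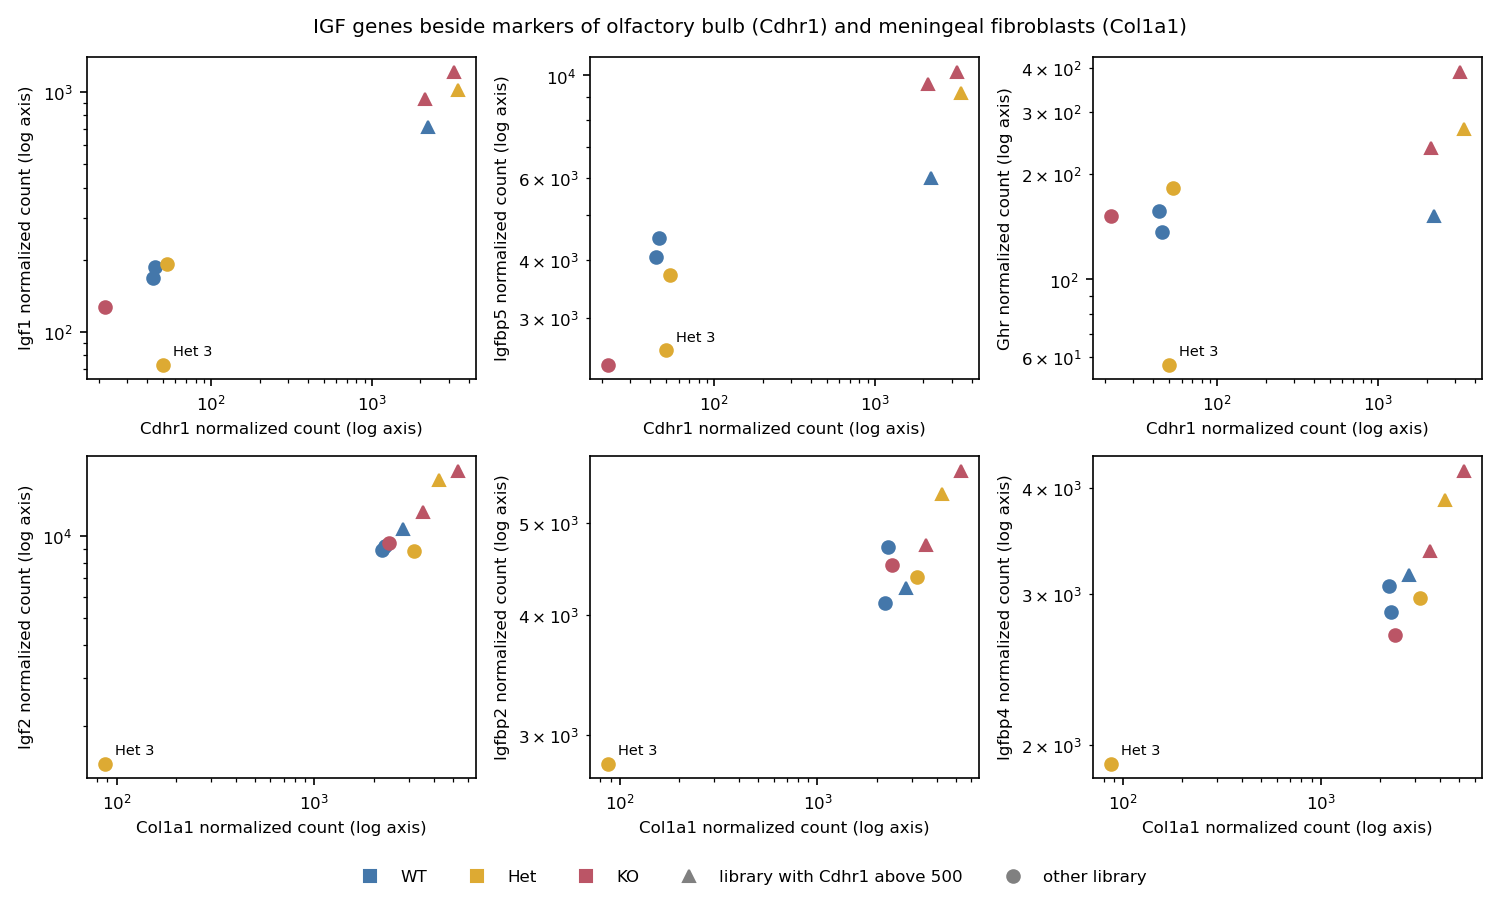
Normalized counts (log axes) of Igf1, Igfbp5 and Ghr against the olfactory bulb marker Cdhr1, and of Igf2, Igfbp2 and Igfbp4 against the meningeal marker Col1a1, with 1 point per library, colours for genotype and triangles for Cdhr1 above 500. In the upper row all triangles lie above all circles for Igf1 and Igfbp5 but not for Ghr, and in the lower row Het replicate 3 stands apart at a Col1a1 of 87.2.

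Seen together, 4 of 10 members (Igf1, Igf2, Igfbp4 and Igfbp5) were higher in all 4 libraries with high Cdhr1 than in any of the other 5, a pattern found for 4.35% of all genes tested (6.95% when either direction is counted), and 5 of 10 (Igf1, Igf2, Igfbp2, Igfbp4 and Ghr) were lowest in Het replicate 3, a pattern found for 18.8%. Relative to the WT mean, Het replicate 3 was at -2.71 on the log2 scale for Igf2, -1.94 for Igf1, -1.35 for Ghr, -0.90 for Igfbp5, -0.67 for Igfbp4 and -0.64 for Igfbp2. The same library was at 0.17 for Igf1r, 0.045 for Insr, 0.042 for Igfbp3 and -0.081 for Igf2r. Igf1r, Insr and Igf2r stayed within 0.27 of the WT mean in all 9 libraries, unlike both ligands. These groups of libraries were seen in the data and are not the study's groups, so no test was made between them.

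**Figure D4:**
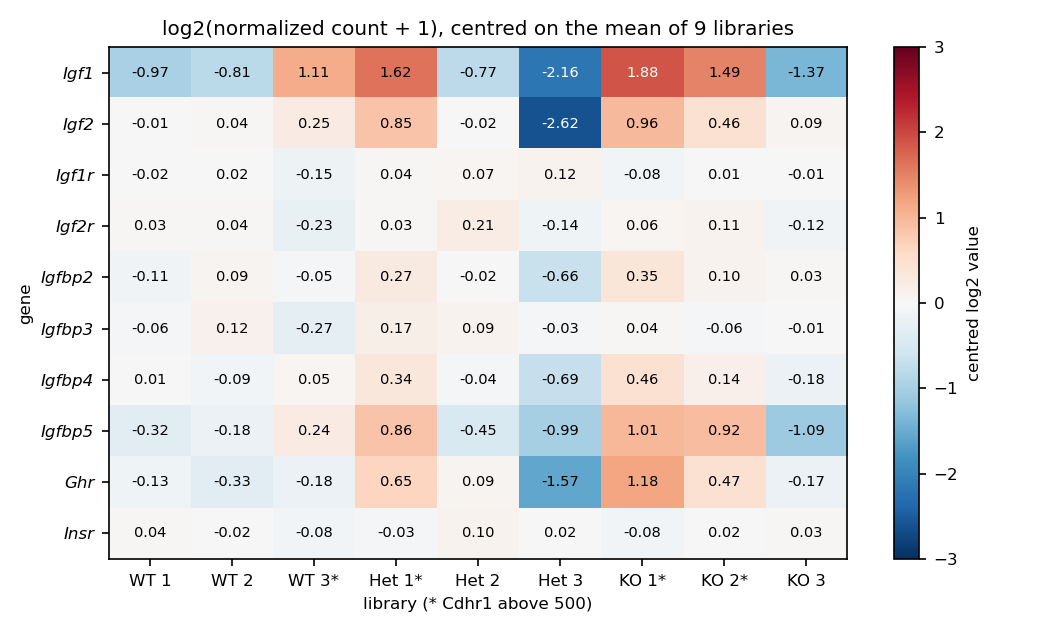
log2(normalized count + 1) of each member in each library, centred on the mean of 9 libraries, with asterisks on libraries with Cdhr1 above 500. Igf2 in Het replicate 3 (-2.62) and Igf1 in KO replicate 1 (1.88) are the extremes, and the Igf1r and Insr rows stay between -0.155 and 0.12.

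The comparison of genotypes asked whether the members' RNA differs between the labelled Cyfip2 genotypes. With limma over all 9 libraries, 0 of 10 members passed an adjusted p of 0.05 for KO against WT, for Het against WT or for KO against Het, and 0.0% of all genes passed in each. At an unadjusted p under 0.05 the members numbered 0 in each comparison, and all genes 1.18%, 1.61% and 3.59% in that order. Between KO and WT the log2 fold change was above 0 for 10 of 10 members, with a median of 0.17 and a range from 0.012 to 0.89, where the median of all genes was -0.0042 and 48.4% were above 0. It was below 0 for 6 of these 10 in the 5 libraries with low Cdhr1, and for 6 of 10 with sex as a covariate, so the common direction is not kept. For Het against WT 4 of 10 were above 0 (median -0.085; 46.2% of all genes), and for KO against Het 6 of 10 (median 0.28; 50.4% of all genes). The 3 comparisons share libraries. The widest 95% intervals were those of Igf1, Igf2, Igfbp5 and Ghr, and in KO against WT those of Igf1, Igf2 and Igfbp5 reached beyond 1 log2 unit in both directions.

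**Figure D5:**
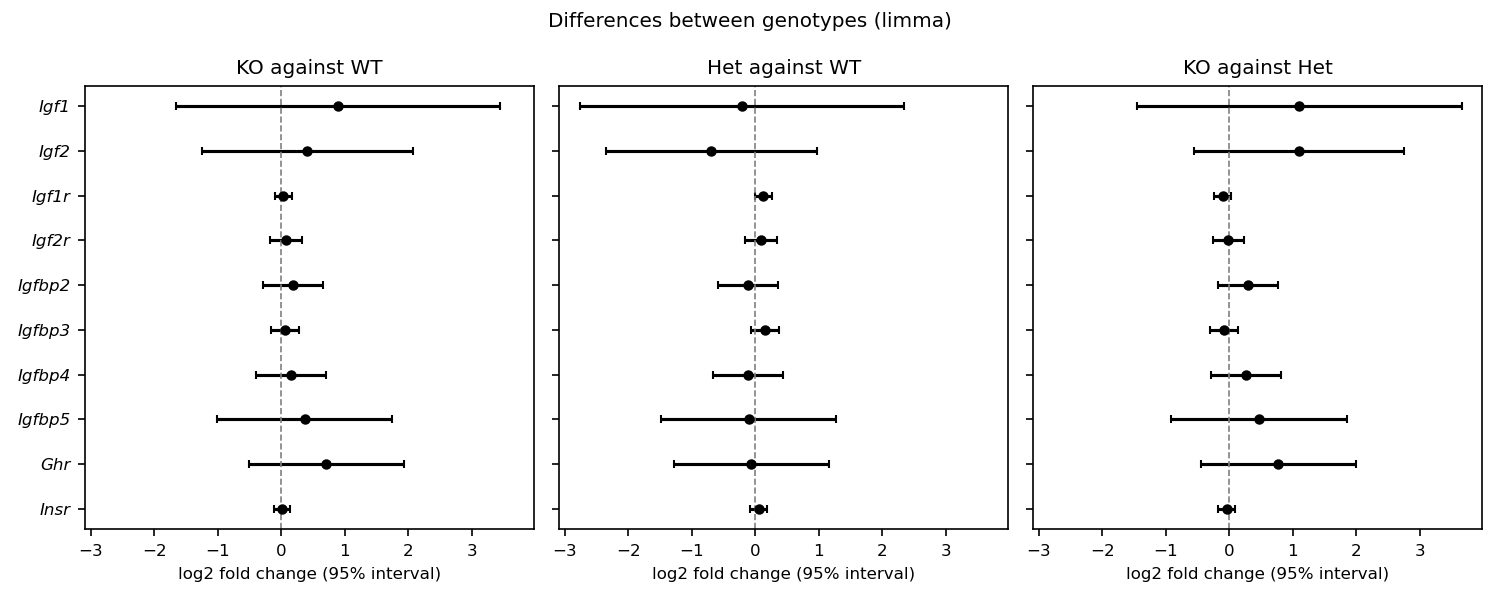
log2 fold changes of the 10 members with 95% intervals from limma, for KO against WT, Het against WT and KO against Het. Every interval includes 0, and those of Igf1r and Insr are the narrowest, while that of Igf1 runs from -1.66 to 3.45 for KO against WT.

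The pathway around the members was described with a list of 50 other genes of growth hormone, insulin and IGF signalling, of which 49 were in the table and 46 were tested. H19, the list's neighbour of Igf2 in the genome, was the listed gene absent from the table and so has no values here. None of the 46 passed in either direction in any comparison, by limma over all genes. At an unadjusted p under 0.05 there were 2 for KO against WT, 1 for Het against WT and 2 for KO against Het. Of all genes, 1.18%, 1.61% and 3.59% reached this in that order. For KO against WT 33 of 46 were above 0, against 48.4% of all genes. The median log2 was 0.053, and -0.0042 over all genes. For Het against WT 27 of 46 were above 0 (46.2% of all genes), and for KO against Het 26 of 46 (50.4%). Groups did not overlap for 2, 3 and 6 of the 46 in that order (6.46%, 6.67% and 7.82% of all genes). All 6 were lower in KO, as were 4.68% of all genes. Igf2bp1, an RNA-binding protein that binds Igf2 messenger RNA, was at 1540, 1529 and 1442 in WT, 1738, 1764 and 1778 in Het and 1577, 1717 and 1648 in KO. Both mutant genotypes lay above all WT libraries, with log2 fold changes of 0.13 ± 0.06 for KO and 0.23 ± 0.06 for Het (adjusted p = 1.00 for each). Igfbpl1, an IGF-binding protein-like gene, was at 20435, 19761 and 16836 in WT, 18929, 20165 and 18889 in Het and 16917, 16146 and 16268 in KO. All KO libraries lay below all Het libraries (log2 -0.23 ± 0.08, adjusted p = 0.942), and KO overlapped WT (log2 -0.20 ± 0.08, adjusted p = 1.00).

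The other pathway genes taken by their small p did not pass either. For KO against WT these were Igfbp7 (log2 0.31 ± 0.19), which binds IGFs weakly, the insulin receptor-related receptor Insrr (0.64 ± 0.43), Tsc2 (-0.063 ± 0.05), a brake on mTOR, and the kinase Akt2 (-0.12 ± 0.09). For Het against WT they were Rictor (0.10 ± 0.05) and Mtor (0.14 ± 0.07), which act together in mTOR complex 2, the adaptor Grb2 (-0.077 ± 0.05), Stat5a (-0.66 ± 0.62), which carries growth hormone signals, and Igfbp6 (-1.34 ± 0.72), which prefers IGF2. Igfbp6 was near the filter on low values, with WT at 26.5 ± 11.1, Het at 13.4 ± 12.1 (SD, n = 3) and Het replicate 3 at 2.12. For KO against Het they were Igfbp6 (1.40 ± 0.72), Igfbp7 (0.36 ± 0.19), the cell cycle inhibitor Cdkn1c (0.19 ± 0.12), Tsc2 (-0.11 ± 0.05) and Pappa2 (-0.40 ± 0.19), a protease of IGF-binding proteins. Grb10, an adaptor that restrains insulin and IGF1 receptors, was at 4078, 3704 and 3315 in WT, 5319, 4391 and 2184 in Het and 5844, 4720 and 3021 in KO, with KO replicate 1 the highest and Het replicate 3 the lowest.

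For the 6 members whose log2 values spanned at least 1, the genes most alike over the 9 libraries were found by the root mean square difference of centred log2 values, a description over libraries that share tissue makeup. Nearest to Igf1 were Frzb, a secreted Wnt antagonist, at 0.21, then Samd3 (0.40) and Crybg1 (0.41). Nearest to Igf2 were Islr, 1 of the 15 meningeal markers, at 0.10, the SNARE protein gene Vamp5 (0.11) and the ectoenzyme gene Enpp1 (0.12). Igfbp2 was nearest to the integrin chain Itga9 (0.075), Fstl1 (0.079) and the transcription factor Ets1 (0.080). Igfbp4 was nearest to the collagen lysyl hydroxylase gene Plod1 (0.051), Sh3pxd2a (0.055) and the myosin light chain gene Myl9 (0.058). Igfbp5 was nearest to Pla2g16 (0.16), the transcription factor Tshz1 (0.18) and Deptor (0.20), which inhibits mTOR. Ghr was nearest to Pabpc4l (0.15) and the matrix genes Frem1 (0.15) and Nid2 (0.15). Frzb was at 54.4, 105 and 270 in WT, 390, 72.6 and 24.5 in Het and 457, 407 and 49.7 in KO, high in the same 4 libraries as Igf1.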

How the data were processed

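RNA sequencing of 9 libraries was analysed, grouped by genotype and numbered from the sample titles. A stranded TruSeq mRNA kit was used, per the labels' protocols. The deposited signal is gene counts divided by size factors by the authors, judged from the table's name and its values (called normalized counts here). Named without a role in the submitters' processing notes are GRCm38, R 3.6.0, DESeq2 1.19.11 and Salmon 0.11.2. The sources used here do not give the strand setting or the choice of genes. Values are not whole reads: 61.0% to 78.5% of values below 6 lay within 0.1 of a multiple of the library's step. So the fallback planned for such values was used in place of a count test, and approximate depth is the total divided by that step.

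Values were taken as log2(value + 1) in the 15069 genes whose mean over libraries reached 10. limma 3.58.1 (R 4.3.3; lmFit, then eBayes with a trend) fitted 1 mean per genotype over all 9 libraries. Two-sided p-values were adjusted by the Benjamini-Hochberg method across all these genes (threshold 0.05), and the fit was tested on simulated data. Fold changes on this scale understate those of low genes. Errors are SDs over 3 libraries beside means and limma standard errors (SE) beside log2 fold changes. Symbols, positions and exon lengths came from GENCODE M21 (GRCm38). The members and lists were chosen with earlier results of these data known. Named genes are the members, Cyfip2 and the named markers, and from the pathway list H19, Grb10 and the 3 of smallest p in each direction of each comparison. To these are added the 3 genes most like each member whose log2 values span at least 1. Libraries of the same number in KO and Het deviated together from their group means (correlations over genes of 0.45, 0.10 and 0.47). The labels do not explain this. In the other comparisons the correlations ran from -0.074 to 0.25 and not every pair exceeded 0.1. Replicate 1 of KO and Het had high Cdhr1 and Ddx3y at 0, and replicate 3 of both had low Cdhr1 and Ddx3y present. Replicate 2 had a Cdhr1 of 53.1 with Ddx3y present in Het, and of 2138 with Ddx3y at 0 in KO. Summed meningeal markers differed between the replicates 3 (601 in Het, 12279 in KO). Tissue makeup and sex were not tested as causes of these correlations. Alternatives covered pseudocounts, filters, rescaling, a replicate block, sex, libraries with Cdhr1 above 500 and each library left out.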

Additional observations from a re-analysis of the deposited data

How the results depend on the processing

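No member passed under any of the 11 other settings or with any of the 9 libraries left out, in any of the 3 comparisons, so limits lie in direction and width. Of 600 repeated member values, 563 kept their direction. With the replicate number as a block, 0 genes and 0 members were called in each comparison, and the block changed no call. Over all genes, 1 was called for Het against WT (Gm3650) and 1 for KO against Het (Lenep) when only the 2 groups compared were fitted, and 0 to 1 in each comparison with a library left out (Gm3650, Lenep or Gm14288, named after their values were seen).

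With sex as a covariate the KO to WT log2 fold change turned to -1.15 for Igf1, -0.52 for Igf2, -0.089 for Igfbp2, -0.25 for Igfbp4, -0.85 for Igfbp5 and -0.091 for Ghr, and the KO to Het value of Igfbp5 to -0.13. Without the 4 libraries with Cdhr1 above 500 it turned to -0.48 for Igf1, -0.0065 for Igf1r, -0.15 for Igf2r, -0.040 for Igfbp3, -0.14 for Igfbp4 and -0.84 for Igfbp5, and KO against Het to -0.37 for Igfbp5. Quantile normalization turned Ghr in Het against WT to 0.067 and Igf2r in KO against Het to 0.014, and upper-quartile rescaling turned the latter to 0.0027. The cause was not tested.

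With 1 library left out, values that changed sign ranged, for KO against WT, from -0.024 to 0.065 (Igf1r), -0.014 to 0.14 (Igf2r), -0.042 to 0.15 (Igfbp3), -0.0083 to 0.31 (Igfbp4), -0.00047 to 1.05 (Igfbp5) and -0.019 to 0.049 (Insr). Without changing sign, KO against WT moved between 0.29 and 1.91 (Igf1), 0.17 and 0.61 (Igf2) and 0.36 and 1.04 (Ghr), each lowest without KO replicate 1 and highest without KO replicate 3. For Het against WT they ranged from -1.24 to 0.65 (Igf1), -1.41 to 0.32 (Igf2), -0.32 to 0.15 (Igfbp2), -0.35 to 0.16 (Igfbp4), -0.63 to 0.29 (Igfbp5) and -0.53 to 0.58 (Ghr), each highest without Het replicate 3 and lowest without Het replicate 1. For KO against Het they ranged from -0.10 to 0.071 (Igf2r, highest without Het replicate 2) and -0.012 to 0.50 (Igfbp4), both lowest without Het replicate 3.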

Other observations

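The pathway genes outside the members were described over the same libraries. Of the 46 tested, 10 were lowest in Het replicate 3, where 18.8% of all genes were: Cdkn1c, Dlk1, Foxo1, Grb10, Igfbp6, Igfbp7, Insrr, Mest, Shc1 and Stat5a. Among these, Mest, an imprinted gene expressed from the paternal copy, was at 2681 in that library and at 2971 to 6247 in the other 8, and the transcription factor Foxo1, which insulin and IGF signals keep out of the nucleus, was at 411 against 525 to 1265. Of the 46, 3 (Igfbp7, Insrr and Stat5b) were higher in all 4 libraries with high Cdhr1 than in any of the other 5, where 4.35% of all genes were. Igfbp7 ran from 896 to 1065 in the 4 and from 568 to 885 in the other 5.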
